A study of Mus musculus with 24 samples.

Results

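The genes described here are 37 genes of oligodendrocytes and myelin, taken from 23872 genes measured by RNA-Seq or ribosome profiling (RiboSeq) in mouse hippocampal slices. They were listed by name, as genes known from oligodendrocytes, by a rule that uses no measured value, although earlier results of these data were known when the list was made. By role, 15 were grouped under myelin membrane and structural proteins (Mbp, Mobp, Mog, Mag, Mal, Cnp, Cldn11, Opalin, Ermn, Pllp, Tspan2, Plekhb1, Hapln2, Evi2a and Bcas1). They are called structural genes below, a loose label that is not exact for every one of them, such as Hapln2 and Evi2a. Another 14 were grouped under myelin lipids, gap junctions and metabolism (Fa2h, Ugt8a, Aspa, Enpp2, Gjc3, Gjb1, Trf, Gsn, Cryab, Apod, Qdpr, Car2, Ppp1r14a and Lpar1). That group is mixed and also holds genes with other roles, such as Cryab, a small heat shock protein. A further 5 are transcription factors of the lineage (Myrf, Nkx6-2, Sox10, Olig1 and Olig2), and 3 mark precursor cells (Pdgfra, Cspg4 and Gpr17). The RNA table held all 37 and the table of ribosome-protected fragments (RPFs, or footprints) held 36, since Nkx6-2 was not listed there. All of those listed passed the filter on low counts, so 37 genes were tested in RNA and 36 in RPF and in translation efficiency (TE, the change in footprints beyond the change in RNA).

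The slices came from male mice aged 28 to 42 days, either wild-type (WT) or littermates heterozygous for a germline deletion of Tsc2 (Tsc2+/-), which was made with a ubiquitously active Cre on a C57BL/6J background. Slices of each genotype received vehicle or 100 µM DHPG, an agonist of group 1 metabotropic glutamate receptors, for 5 min, and slices of every group were then kept in 100 µg/ml cycloheximide, which arrests ribosomes on mRNA. Region CA3 was cut away, each lysate pooled slices from several mice, and 1 part of a lysate went to poly(A) RNA-Seq and the rest to RiboSeq, giving 3 RNA and 3 RPF libraries for each of the 4 groups. With pooled animals, p-values rest on the spread between pools and not between mice, after shifts shared by a replicate number are fitted. How much fimbria, alveus or other white matter each pool held was not recorded in the labels.

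Oligodendrocytes wrap axons in myelin, a stack of tightly packed membrane that is rich in galactolipids and in a small set of abundant proteins. Precursor cells carrying the receptor Pdgfra and the proteoglycan Cspg4 (NG2) pass through a stage marked by the receptor Gpr17 before they mature, and Olig1, Olig2, Sox10 and Myrf direct that course. In the hippocampus myelin is dense in the alveus and fimbria and sparse in the cell layers, so the level of these genes in a piece of tissue depends on where it was cut. In bulk slices, fewer cells of a type and less RNA per cell cannot be told apart. This holds for every level and difference in RNA or in footprints given here. TE and footprints per RNA set the assays against each other, so a shift of equal size in both cancels there. What lay behind differences in those ratios was not tested.

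Library totals were 14801679 to 24067838 counts in RNA and 5296006 to 13613673 in RPF, of which the genes described here took 82855 to 129980 and 28678 to 83573. Tsc2, the targeted gene, was lower in Tsc2+/- libraries in RNA and RPF and in vehicle and DHPG, by log2 differences between -0.52 and -0.74 (largest adjusted p = 1.1e-06, edgeR quasi-likelihood test with Benjamini-Hochberg adjustment over all genes tested). The footprint counts of replicates 2 and 3 were 97.9 to 98.5% even numbers, against 48.2 to 49.0% in replicate 1. Levels are given as CPM, counts brought to the same library total after TMM scaling, and a difference is on the log2 scale with its standard error, from a fit with the replicate number as a covariate. A gene was called at an adjusted p under 0.1. Mbp, Mal, Cnp and the other defining myelin genes were detected in all 24 libraries, so the tissue held oligodendrocyte RNA throughout.

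Mbp, which encodes the basic protein that seals the cytoplasmic faces of compact myelin, was the most abundant of these genes in RNA. Its RNA measured 1414, 1222 and 1476 CPM in WT vehicle, 1560, 1359 and 1499 CPM in WT DHPG, 1610, 1363 and 1537 CPM in Tsc2+/- vehicle and 1366, 1326 and 1548 CPM in Tsc2+/- DHPG. Its footprints measured 629, 493 and 549 CPM in WT vehicle, 609, 488 and 567 CPM in WT DHPG, 632, 507 and 675 CPM in Tsc2+/- vehicle and 531, 464 and 586 CPM in Tsc2+/- DHPG. Replicate 2 was the lowest library of all 4 groups in RPF and in RNA alike, and the groups overlapped throughout.

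Mal, a proteolipid of myelin membranes, followed in RNA at 482, 406 and 511 CPM in WT vehicle, 471, 438 and 482 CPM in WT DHPG, 507, 428 and 557 CPM in Tsc2+/- vehicle and 439.7, 452 and 519.7 CPM in Tsc2+/- DHPG, with the lowest value in replicate 2 of every group but Tsc2+/- DHPG. Its footprints lay between 164.5 and 221 CPM. Cnp, the cyclic nucleotide phosphodiesterase of non-compact myelin, had an RNA level of 416, 337 and 404 CPM in WT vehicle, 418, 362 and 391 CPM in WT DHPG, 389, 360.1 and 378 CPM in Tsc2+/- vehicle and 346, 332 and 396 CPM in Tsc2+/- DHPG. Cnp carried the most footprints of all 36, at 833, 637 and 707 CPM in WT vehicle, 755, 667 and 701 CPM in WT DHPG, 772, 651 and 779.9 CPM in Tsc2+/- vehicle and 619, 602 and 676 CPM in Tsc2+/- DHPG. Among its footprints the Tsc2+/- DHPG libraries were low, with 2 of the 3 under every other library, while the groups still overlapped. Mag, the adhesion glycoprotein that faces the axon, had an RNA level of 302, 260.3 and 304 CPM in WT vehicle, 344, 303 and 312 CPM in WT DHPG, 346, 291 and 324 CPM in Tsc2+/- vehicle and 290.5, 306 and 315 CPM in Tsc2+/- DHPG. Its footprints measured 679.7, 451 and 533 CPM in WT vehicle, 575, 486 and 499 CPM in WT DHPG, 607, 518 and 608 CPM in Tsc2+/- vehicle and 516, 498 and 528 CPM in Tsc2+/- DHPG. WT vehicle replicate 1 held the highest footprint value of Mag and WT vehicle replicate 2 the lowest, so that the 3 libraries of that group spanned the other 9.

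Cldn11, which forms the tight junctions of the myelin sheath, had an RNA level of 277, 244 and 289 CPM in WT vehicle, 309.5, 277 and 269 CPM in WT DHPG, 288, 258 and 269.8 CPM in Tsc2+/- vehicle and 264, 271 and 266 CPM in Tsc2+/- DHPG. Its footprints lay between 318 and 415.5 CPM, and both measures overlapped in all groups. The RNA of Trf, the iron carrier transferrin, measured 232, 242 and 245 CPM in WT vehicle, 240.5, 255 and 251 CPM in WT DHPG, 263, 245 and 261 CPM in Tsc2+/- vehicle and 226, 252 and 259 CPM in Tsc2+/- DHPG. All 3 Tsc2+/- vehicle values were above all 3 WT vehicle values, although the nearest pair, 245.0 and 245.2 CPM, all but touched. The rarest were Nkx6-2, Ppp1r14a, Aspa and Hapln2, whose mean RNA was 4.03, 4.61, 5.58 and 6.35 CPM. Their counts set wide errors, with standard errors of 0.17 to 0.22 for a log2 difference in RNA against 0.048 for Mbp.

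The precursor genes were intermediate. Pdgfra RNA measured 79.9, 76.7 and 64.1 CPM in WT vehicle, 75.8, 79.4 and 77.5 CPM in WT DHPG, 67.4, 79.3 and 79.0 CPM in Tsc2+/- vehicle and 72.3, 82.1 and 74.6 CPM in Tsc2+/- DHPG, and the 3 values of a group overlapped those of every other. Cspg4 measured 19.0, 20.5 and 15.4 CPM in WT vehicle, 16.8, 20.7 and 19.6 CPM in WT DHPG, 20.2, 17.9 and 16.9 CPM in Tsc2+/- vehicle and 21.2, 18.01 and 20.5 CPM in Tsc2+/- DHPG. Gpr17 measured 59.4, 48.3 and 55.4 CPM in WT vehicle, 60.5, 43.8 and 64.6 CPM in WT DHPG, 60.8, 50.3 and 65.2 CPM in Tsc2+/- vehicle and 54.3, 57.8 and 61.4 CPM in Tsc2+/- DHPG, and its lowest and its second highest value, 43.8 and 64.6 CPM, were both in WT DHPG. The 3 genes together summed to 134.9 to 161.8 CPM in RNA, and their lowest library was WT vehicle replicate 3, a library in which the structural genes were high.

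**Figure D1:**
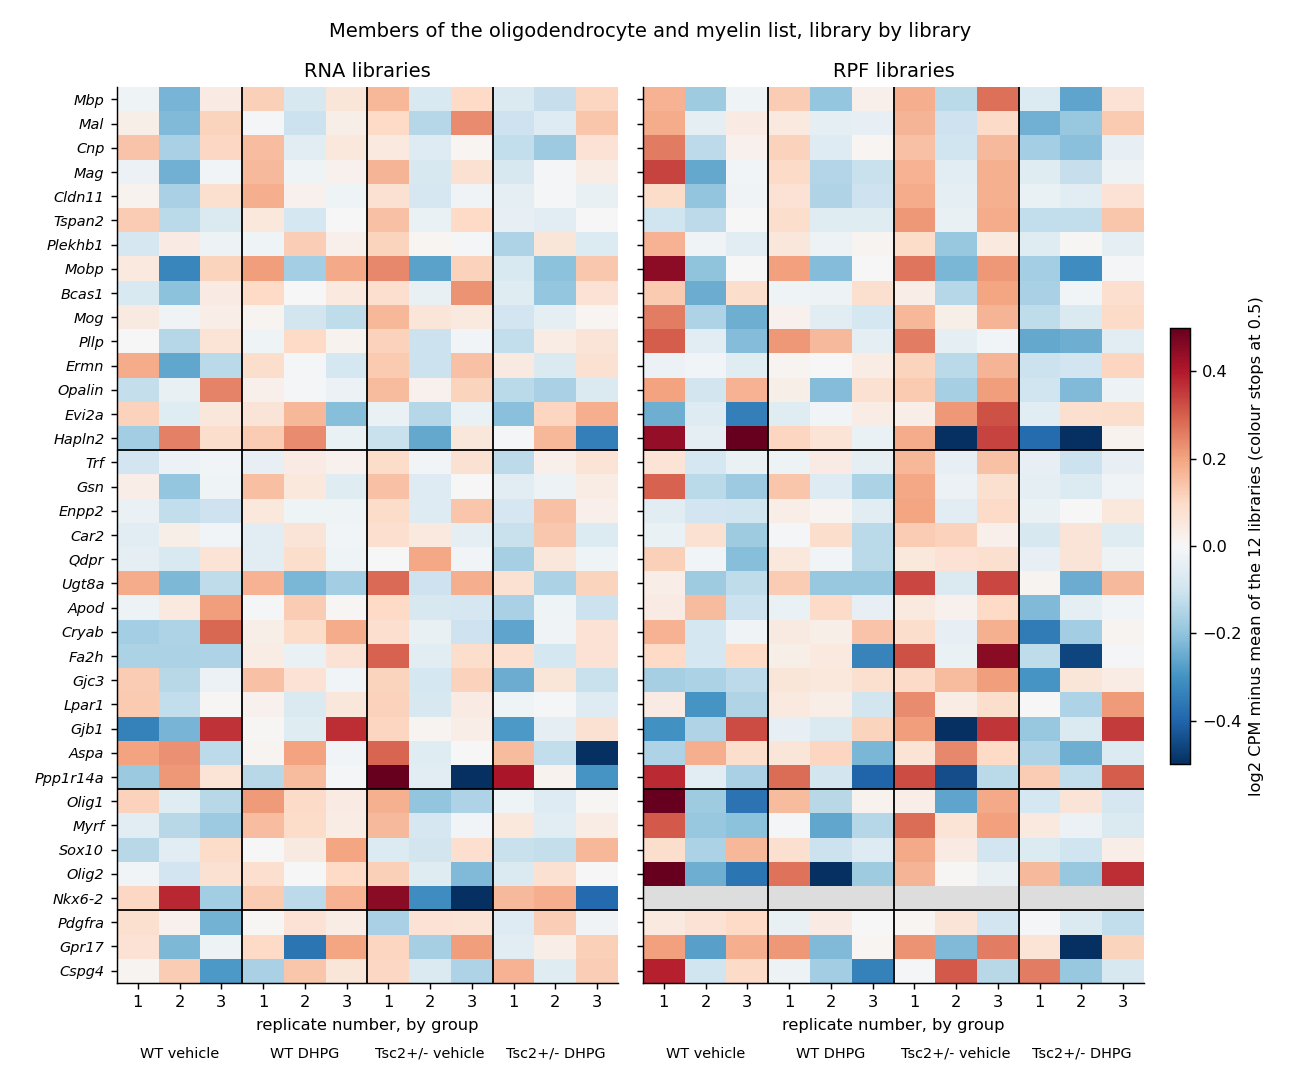
The plot shows each gene's log2 CPM in each library less that gene's mean over the 12 libraries of its assay, with genes as rows ordered by role and libraries as columns ordered by group and replicate, for RNA and for RPF. Columns such as Tsc2+/- vehicle 1 (high in RNA) and WT vehicle 2 (low in RNA) shift over most myelin rows at once, while the 3 precursor rows vary on their own.

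Footprints were set against RNA per length of coding sequence and of transcript, as the ratio of the 2 levels in WT vehicle. These ratios were spread widely, from 0.555 ± 0.0933 (SD, n = 3) for Myrf, a membrane-bound transcription factor that turns on myelin genes, to 14.1 ± 2.17 for Apod, a secreted lipid carrier. The median over 36 genes was 3.02, against 2.24 over 11987 genes, and 24 of 36 were above the latter. Transcription factors were at the low end, with Olig1 at 1.18 ± 0.363 and Sox10 at 1.25, along with Mobp, Gjb1 and Mbp at 1.25, 1.25 and 1.49. Lengths were those of the longest coding form of each gene, of 250 residues for Mbp (8 coding transcripts) and 170 for Mobp (2). Other forms were not tried, so the places of such genes depend on that choice. Opalin (8.34 ± 1.35), Aspa, which cleaves N-acetylaspartate (9.17 ± 1.81), and Ermn, a cytoskeletal protein of the outer sheath (9.55 ± 1.51), were at the high end with Apod. The order of neighbours such as Aspa and Ermn lay within their spread. The scale of such ratios depends on both library types, so only the order among genes is given weight here, and the medians of the 4 groups were close, at 3.02 and 2.80 in WT slices (vehicle and DHPG) and 2.99 and 2.81 in Tsc2+/- slices.

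The bases around the start codon are shown for 3 genes with low ratios and 3 with high ones, since the start is where a scanning ribosome begins translation; the ATG and no other base is in capitals. They are from RefSeq on build GRCm38.p6 and read 5′ to 3′ on the strand of the gene.
Myrf, chr19:10240601-10240613, minus strand: aggcgggccATGg
Olig1, chr16:91269868-91269880, plus strand: ccgccccagATGt
Sox10, chr15:79163713-79163725, minus strand: gggagcgacATGg
Aspa, chr11:73324484-73324496, minus strand: tttgttaaaATGa
Ermn, chr2:58052713-58052725, minus strand: gtgaacatcATGa
Apod, chr16:31311133-31311145, minus strand: caccccaagATGg
A or G at 3 bases before the ATG together with G right after it, the pattern of a favourable start, was held by 20 of 37 genes (54.1%) and by 42.4% of 19355 genes with a coding sequence. Of the 6 shown, Myrf held both and had the lowest ratio, whereas Aspa and Ermn lacked the G and had high ones, so this pattern did not sort the 6 by their footprints per RNA. A match is a description of the letters and not of a site in use.

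**Figure D2:**
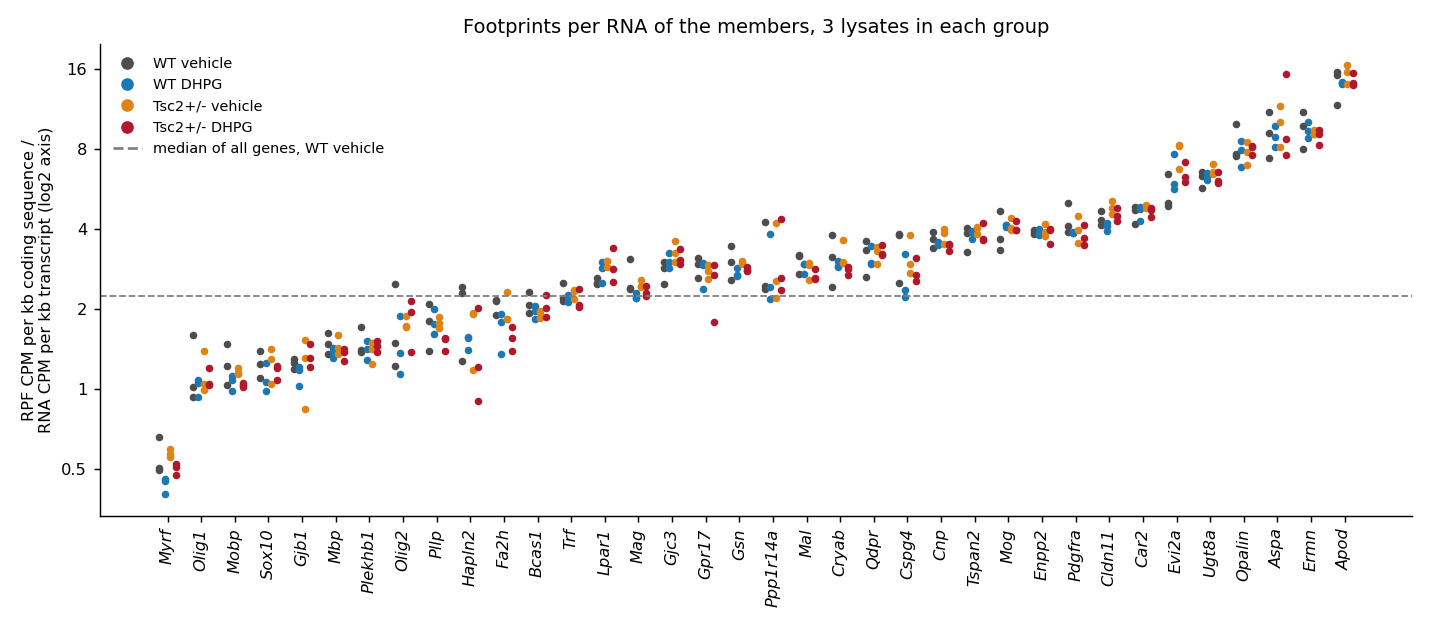
The plot shows footprints per RNA, each per length, on a log axis for each gene, with a point for each of the 12 lysates coloured by group and a dashed line at the WT vehicle median over all genes; genes are ordered by their WT vehicle mean. Myrf has the lowest WT vehicle mean, 0.555, and Apod the highest, 14.1, and 24 of 36 genes lie above the median of all genes.

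Whether loss of 1 Tsc2 copy or DHPG moved these genes was asked in 7 comparisons in each of RNA, RPF and TE. None of the genes was called in any of the 21, by the edgeR quasi-likelihood test or by DESeq2 on the same groups. The shares of all genes called were themselves small. In RNA they were 0.0896% for genotype in vehicle, 0.0482% for genotype under DHPG, 0% for DHPG in WT, 0% for DHPG in Tsc2+/-, 0% for the interaction of genotype and DHPG, 0.227% for genotype averaged over treatments and 0.0207% for DHPG averaged over genotypes. In RPF the shares in that order were 0.0233%, 0.0155%, 0.0311%, 0%, 0%, 0.0621% and 0.0311%, and in TE they were 0%, 0%, 0.0469%, 0%, 0%, 0% and 0.0469%. Since so few genes were called anywhere, the differences are described with their errors, with the number of genes at an unadjusted p under 0.05 beside the share of all genes at that level in the same direction. These comparisons share libraries (the WT vehicle group enters genotype in vehicle and DHPG in WT, and the Tsc2+/- vehicle group enters genotype in vehicle and DHPG in Tsc2+/-), so a high or low group appears in more than 1 of them.

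In vehicle, RNA of most myelin genes was a little higher in Tsc2+/- slices than in WT, and no difference passed the adjusted threshold. The median log2 difference was 0.06 over 37 genes, with 27 above 0 and 10 below, against 0.00 over all genes tested. At an unadjusted p under 0.05, 7 were higher and 0 lower (2.6% of all genes were higher at that level), namely Fa2h, Bcas1, Mbp, Mag, Ugt8a, Myrf and Enpp2. Fa2h, which hydroxylates the fatty acids of myelin galactolipids, measured 55.3, 55.2 and 55.4 CPM in WT vehicle and 75.7, 59.2 and 65.6 CPM in Tsc2+/- vehicle. The groups did not overlap, and Tsc2+/- replicate 1 stood apart from the other two. Its log2 difference was 0.26 ± 0.07 (adjusted p = 0.346 in the edgeR quasi-likelihood test). Bcas1, a marker of oligodendrocytes that have begun to myelinate, measured 88.5, 80.9 and 95.9 CPM against 98.8, 91.0 and 109 CPM, with overlapping groups and a log2 difference of 0.17 ± 0.061. For Mbp the difference was 0.13 ± 0.048, with a 95% interval of 0.04 to 0.23. Trf, Mog and Fa2h were higher in all 3 Tsc2+/- libraries than in any WT library, against 4.01% of all genes. The tally of 7 was 3 without Tsc2+/- vehicle replicate 1, and the median was then 0.01. The median was 0.04 without WT vehicle replicate 2. In the other direction, the tally was 9 without WT vehicle replicate 1 or Tsc2+/- vehicle replicate 2.

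Footprints in vehicle were higher in Tsc2+/- slices for 26 of 36 genes, with a median log2 difference of 0.08. That median was 0.15 without WT vehicle replicate 1, 0.04 without replicate 3 of either group and 0.01 without all libraries numbered 3. At an unadjusted p under 0.05, 8 were higher and 0 lower, against 3.38% of all genes higher, namely Ugt8a, Evi2a, Enpp2, Tspan2, Gjc3, Cldn11, Car2 and Lpar1. Only Ugt8a and Enpp2 stood on the lists of both RNA and footprints. Ugt8a, the enzyme that makes galactosylceramide, had footprints of 209.5, 181 and 187 CPM in WT and 258, 194 and 258 CPM in Tsc2+/-. Its groups overlapped through Tsc2+/- replicate 2, and the log2 difference was 0.29 ± 0.074 (adjusted p = 0.39 in the edgeR quasi-likelihood test). Footprints of Evi2a measured 28.1, 31.9 and 26.2 CPM against 34.0, 38.7 and 41.5 CPM. Those of Gjc3, a connexin of oligodendrocytes, measured 25.2, 25.3 and 25.9 CPM against 30.3, 31.6 and 32.7 CPM. Evi2a and Gjc3 were the 2 genes whose groups did not overlap, against 4.21% of all genes, and their log2 differences were 0.39 ± 0.11 and 0.31 ± 0.11. The tally of 8 was 16 without WT vehicle replicate 1 and 4 without Tsc2+/- vehicle replicate 1, and it was 5 without the libraries numbered 3. In TE, the median was 0.02, or -0.03 without replicate 3 of either group, and 1 gene, Evi2a, was higher at that level (2.94% of all genes), with a log2 difference of 0.50 ± 0.16. That count was 3 without WT vehicle replicate 1 and 4 without the libraries numbered 1.

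In DHPG, the median log2 difference between the genotypes was -0.06 in RNA, with 28 of 37 genes below 0. Without Tsc2+/- DHPG replicate 1 it was 0.00, with 19 below 0 and 18 above, and without WT DHPG replicate 3 or Tsc2+/- DHPG replicate 2 it was -0.09. At an unadjusted p under 0.05, 3 genes were lower, Olig1, Cnp and Mobp, against 2.36% of all genes, and the count was 0 without WT DHPG replicate 2, 1 without Tsc2+/- DHPG replicate 1, 5 without WT vehicle replicate 3, WT DHPG replicate 3 or Tsc2+/- vehicle replicate 1, and 10 without Tsc2+/- DHPG replicate 2. Olig1, a transcription factor of the whole lineage, measured 229, 211 and 203 CPM in WT DHPG and 195, 189 and 198 CPM in Tsc2+/- DHPG. All Tsc2+/- values were below all WT values, the nearest pair being 203 and 198 CPM, and the log2 difference was -0.14 ± 0.058. Olig1, Apod and Opalin were the 3 genes lower without overlap, against 4.54% of all genes. In footprints the median was -0.04 and 3 genes were lower at the unadjusted level, Cnp, Cryab and Pllp, against 2.05% of all genes. Cryab, a small heat shock protein, had footprints of 86.9, 86.0 and 93.0 CPM in WT DHPG and 66.2, 74.8 and 85.2 CPM in Tsc2+/- DHPG, which did not overlap, with a log2 difference of -0.24 ± 0.085. Pllp and Cryab were the 2 genes lower without overlap, against 5.1% of all genes. Without Tsc2+/- DHPG replicate 1 the footprint count was 0, without WT DHPG replicate 2 it was 1, and without Tsc2+/- DHPG replicate 3 it was 6. The footprint median turned to 0.04 without Tsc2+/- DHPG replicate 1 (22 of 36 above 0), was 0.00 without WT DHPG replicate 2 and was -0.07 without Tsc2+/- DHPG replicate 3. The median TE difference was 0.03, or -0.03 without Tsc2+/- DHPG replicate 3 and -0.02 without WT DHPG replicate 3.

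**Figure D3:**
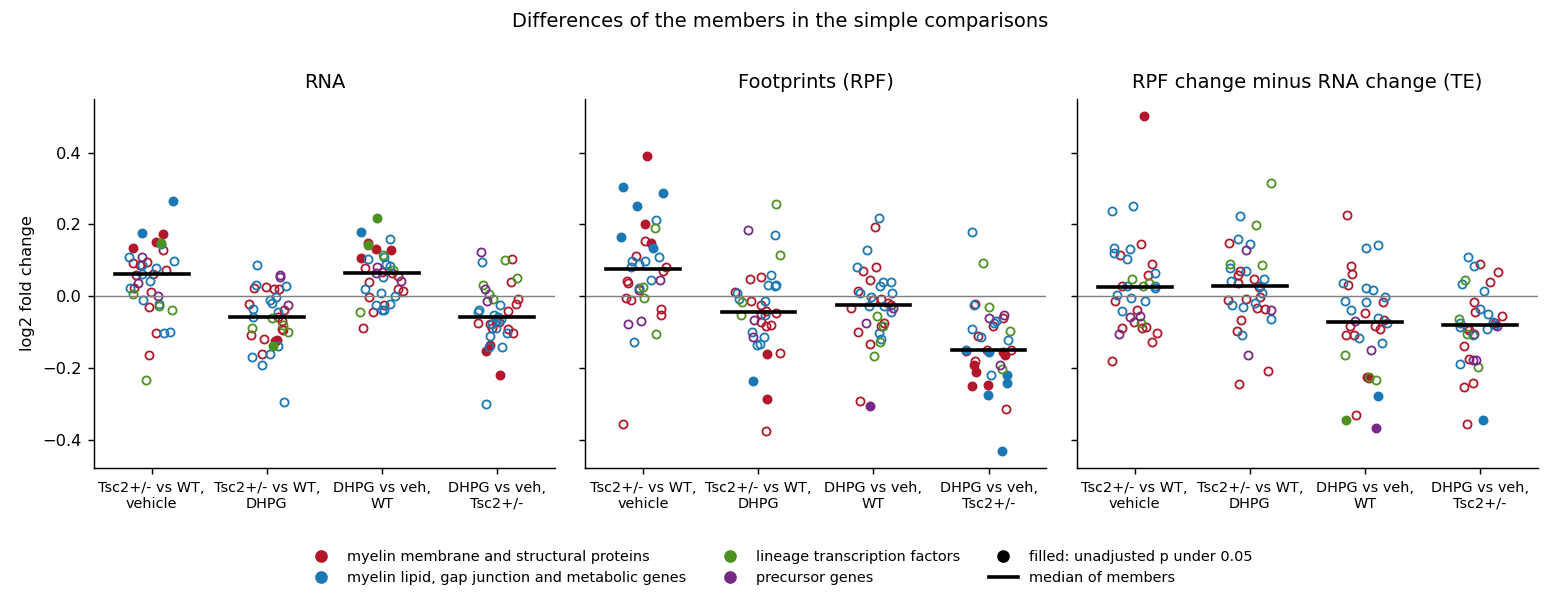
The plot shows the log2 difference of every gene (vertical axis) as a point in each of 4 comparisons, with a panel each for RNA, RPF and TE, coloured by role and filled where the unadjusted p was under 0.05, and a bar at the median of these genes. The RNA medians are 0.06, -0.06, 0.06 and -0.06 from left to right, and the lowest RPF median, -0.15, is that of DHPG in Tsc2+/-.

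In WT slices, RNA of 28 of 37 genes was higher after DHPG, with a median log2 difference of 0.06. At an unadjusted p under 0.05, 7 were higher, Myrf, Mag, Fa2h, Olig1, Mobp, Mbp and Bcas1, against 3.7% of all genes. Myrf RNA measured 84.0, 79.4 and 77.1 CPM in vehicle and 97.3, 93.2 and 89.7 CPM after DHPG. The 3 treated libraries were above the 3 untreated ones, and the log2 difference was 0.22 ± 0.062 (adjusted p = 0.712 in the edgeR quasi-likelihood test). Fa2h RNA after DHPG was 63.3, 60.2 and 64.8 CPM, above all 3 vehicle values given earlier. Enpp2, Myrf and Fa2h were higher without overlap, against 5.43% of all genes. The tally of 7 was 4 without WT vehicle replicate 1, 3 without WT vehicle replicate 2 or WT DHPG replicate 1, and 2 without WT DHPG replicate 2. Without WT vehicle replicate 3 it was 10. The median was 0.03 without WT vehicle replicate 2 and 0.08 without WT vehicle replicate 3.

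Footprints of the same WT slices had no stable direction. Their median log2 difference was -0.03 and turned to 0.03 without WT vehicle replicate 1 and to 0.02 without WT DHPG replicate 3, each with 23 of 36 above 0. Without WT vehicle replicate 2 or 3 or WT DHPG replicate 1 or 2 it lay between -0.04 and -0.05. In the fit of all libraries the footprints were split, with 13 genes above 0 and 23 below, and Cspg4 alone passed an unadjusted p under 0.05, on the lower side (2.92% of all genes). Cspg4 footprints measured 62.0, 44.2 and 50.6 CPM in vehicle and 46.6, 42.0 and 37.5 CPM after DHPG, which overlapped, with a log2 difference of -0.31 ± 0.11. That difference missed the unadjusted level without WT vehicle replicate 1 or WT vehicle replicate 3, and 2 genes were past it without WT vehicle replicate 2 or WT DHPG replicate 2. Evi2a, Gjc3 and Ermn were higher without overlap, against 5.0% of all genes, and Pdgfra was lower without overlap, against 3.96%. The median TE difference was -0.07 (-0.14 without WT vehicle replicate 3 and -0.02 without WT vehicle replicate 1), and 5 genes were lower at the unadjusted level, Myrf, Mag, Cspg4, Mobp and Fa2h, against 4.31% of all genes. For Myrf the TE difference was -0.35 ± 0.12 (adjusted p = 0.343 in the edgeR quasi-likelihood test), the RNA difference being positive and the footprint difference -0.13 ± 0.12. The TE count was 3 without WT DHPG replicate 1 or replicate 2, 1 without WT vehicle replicate 1 or WT DHPG replicate 3, and 0 without the libraries numbered 1. It was 7 without WT vehicle replicate 3. Without WT vehicle replicate 2, the TE difference of Cspg4 was -0.61 and was called (adjusted p = 0.0882 in edgeR).

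In Tsc2+/- slices the footprints of nearly all these genes were below their vehicle level after DHPG, the most one-sided of the 21 comparisons by the count of genes on each side of 0. The median log2 difference was -0.15, with 34 of 36 genes below 0, against a median of all genes of 0.00. No gene passed the adjusted threshold. At an unadjusted p under 0.05, 12 were lower and 0 higher, against 1.88% of all genes lower. They were Fa2h, Cnp, Mbp, Ugt8a, Cryab, Trf, Mobp, Aspa, Apod, Mag, Pllp and Tspan2. Structural genes had a median of -0.16 (15 of 15 below 0, 6 at the unadjusted level), lipid, junction and metabolic genes -0.14 (13 of 14, 6), transcription factors -0.06 and precursor genes -0.06. Fa2h footprints measured 58.9, 46.1 and 64.5 CPM in vehicle and 43.3, 34.4 and 47.0 CPM after DHPG. They overlapped by a single library, and the log2 difference was -0.43 ± 0.11 (95% interval -0.67 to -0.20, adjusted p = 1 in the edgeR quasi-likelihood test). For Cnp the difference was -0.21 ± 0.057 and for Mbp -0.19 ± 0.057, with the same adjusted p of 1. Aspa, Myrf, Pllp, Apod and Gjc3 were lower without overlap, against 4.47% of all genes. The tally of 12 was 5 without Tsc2+/- vehicle replicate 3 and 5 without Tsc2+/- DHPG replicate 1, and it was 6 without the libraries numbered 1. In the other direction it was 17 without Tsc2+/- DHPG replicate 3, and 18 without WT vehicle replicate 1 or with only the compared groups fitted. It was 5 without the replicate number in the fit. The median was -0.09 without Tsc2+/- DHPG replicate 1, and -0.19 without Tsc2+/- DHPG replicate 3, with 36 of 36 genes below 0. Cnp, Mbp and Fa2h were called when the 6 libraries compared were fitted alone, with adjusted p of 0.0535, 0.0724 and 0.0535 in edgeR, and Cnp was called without WT vehicle replicate 1 (adjusted p = 0.0485).

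RNA of the same slices had a median difference of -0.06, with 28 of 37 genes below 0. Bcas1, Opalin and Mog were the 3 lower at the unadjusted level, against 2.16% of all genes. Bcas1 measured 89.4, 81.6 and 98.1 CPM after DHPG, which overlapped the vehicle values given earlier. Opalin, a glycoprotein found in central myelin, measured 33.4, 30.4 and 32.4 CPM in vehicle and 27.3, 26.8 and 28.5 CPM after DHPG, which did not overlap, with a log2 difference of -0.22 ± 0.088. Opalin and Mog were lower without overlap, against 4.46% of all genes. The count of 3 was 1 without Tsc2+/- vehicle replicate 1, 5 to 7 without WT vehicle replicate 3, Tsc2+/- vehicle replicate 2 or 3 or Tsc2+/- DHPG replicate 2 or 3, and 0 without the libraries numbered 1, when the median was 0.01. The median was -0.01 without Tsc2+/- vehicle replicate 1 or Tsc2+/- DHPG replicate 1 and -0.11 without Tsc2+/- DHPG replicate 2. The TE median was -0.08 (28 of 36 below 0; -0.04 without Tsc2+/- DHPG replicate 2 and -0.13 without Tsc2+/- DHPG replicate 3), with Fa2h the 1 gene lower at the unadjusted level (-0.34 ± 0.13; 1.74% of all genes). Gsn, Myrf, Pllp, Car2, Cryab, Mobp and Fa2h had lower footprints per RNA in all 3 DHPG lysates than in any vehicle lysate, against 4.81% of all genes. The Fa2h TE difference missed the unadjusted level without Tsc2+/- vehicle replicate 3 or Tsc2+/- DHPG replicate 2, and other leave-outs gave up to 3 genes (without Tsc2+/- vehicle replicate 1).

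The interaction, which asks whether DHPG acted differently in the 2 genotypes, had a median of -0.11 in RNA, with 32 of 37 genes below 0, and of -0.13 in RPF, with 30 of 36 below 0. At an unadjusted p under 0.05, 6 genes were lower in RNA (Bcas1, Mbp, Mag, Fa2h, Myrf and Mobp; 1.7% of all genes) and 9 in RPF (1.95%). For Bcas1 the RNA interaction was -0.28 ± 0.086 (adjusted p = 0.999 in the edgeR quasi-likelihood test). The RNA count was 3 without Tsc2+/- vehicle replicate 1 or Tsc2+/- DHPG replicate 1, 10 without Tsc2+/- DHPG replicate 2 and 12 without WT vehicle replicate 3. The RPF count ran from 1 without Tsc2+/- DHPG replicate 1 to 11, was 5 or fewer without WT vehicle replicate 2 or 3, WT DHPG replicate 1 or 2, Tsc2+/- vehicle replicate 1 or 3 or Tsc2+/- DHPG replicate 2, and was 2 by DESeq2. Without Tsc2+/- DHPG replicate 1 the medians were -0.05 in RNA and -0.03 in RPF, and without WT vehicle replicate 3 that of RPF was -0.08. The TE interaction had a median of 0.00, with Evi2a the 1 gene lower at the unadjusted level (1.96% of all genes).

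Averaged over the other factor, the RNA medians were -0.01 for genotype and 0.01 for DHPG, and both changed sign with single libraries left out. For genotype, Fa2h and Ugt8a were higher and Cnp, Apod and Olig1 lower at an unadjusted p under 0.05, against 3.05% and 3.07% of all genes, while without Tsc2+/- DHPG replicate 1 there were 5 higher and 0 lower, and without WT DHPG replicate 2 or Tsc2+/- vehicle replicate 3 there were 0 lower. For DHPG, Myrf and Olig1 were higher and Mog and Opalin lower, against 4.07% and 3.42%, and leave-outs gave 0 to 3 and 0 to 2. In RPF, DHPG had a median of -0.08 with 8 genes lower at that level (Mbp, Mobp, Mag, Mal, Cnp, Opalin, Fa2h and Cspg4; 2.68% of all genes), a count that ran from 2 without Tsc2+/- DHPG replicate 1 to 13 without Tsc2+/- DHPG replicate 3 or WT vehicle replicate 3, and was 4 without WT vehicle replicate 1, WT DHPG replicate 3 or Tsc2+/- vehicle replicate 3. Genotype had 4 genes higher in RPF (Cldn11, Evi2a, Ugt8a and Enpp2; 3.18%), and leave-outs gave 0 (without the libraries numbered 3) to 10 (without WT vehicle replicate 1). Without the libraries numbered 3 the direction turned, with 7 genes lower (4.27% of all genes), 23 of 36 below 0 and a median of -0.03. In TE, DHPG had a median of -0.07, with 29 of 36 genes below 0, and leave-outs gave medians of -0.11 to -0.05. At the unadjusted level 6 genes were lower (Mbp, Mobp, Mag, Fa2h, Myrf and Cspg4), against 3.75% of all genes. That count was 8 without WT vehicle replicate 3, and 3 without WT vehicle replicate 1 or Tsc2+/- vehicle replicate 2. Cldn11 and Evi2a were higher for genotype in TE (2.18%), and leave-outs gave 0 (without WT vehicle replicate 3) to 4 (without WT vehicle replicate 1).

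The levels were then read library by library, to set the spread inside a group beside the differences between groups. Summed over the 37 genes, RNA was 5389 ± 369.9 CPM in WT vehicle and 5664 ± 229.8 CPM in WT DHPG (SD, n = 3). It was 5708 ± 402 CPM in Tsc2+/- vehicle and 5442 ± 281 CPM in Tsc2+/- DHPG (SD, n = 3). The lowest library (WT vehicle replicate 2, 4963 CPM) and the highest (Tsc2+/- vehicle replicate 1, 6050 CPM) differed by 1.22-fold, while the lowest and highest group means differed by less than the range inside WT vehicle or Tsc2+/- vehicle. Summed footprints were 5824 ± 584, 5750 ± 289.7, 6185 ± 499.6 and 5570 ± 275 CPM in the same order. The structural genes alone summed in RNA to 3913, 3389 and 3999 CPM in WT vehicle, 4152, 3728 and 3977 CPM in WT DHPG, 4249, 3656 and 4126 CPM in Tsc2+/- vehicle and 3651, 3650 and 4069 CPM in Tsc2+/- DHPG. In every group the library numbered 2 was the lowest, level with replicate 1 in Tsc2+/- DHPG and well under the other two elsewhere.

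**Figure D4:**
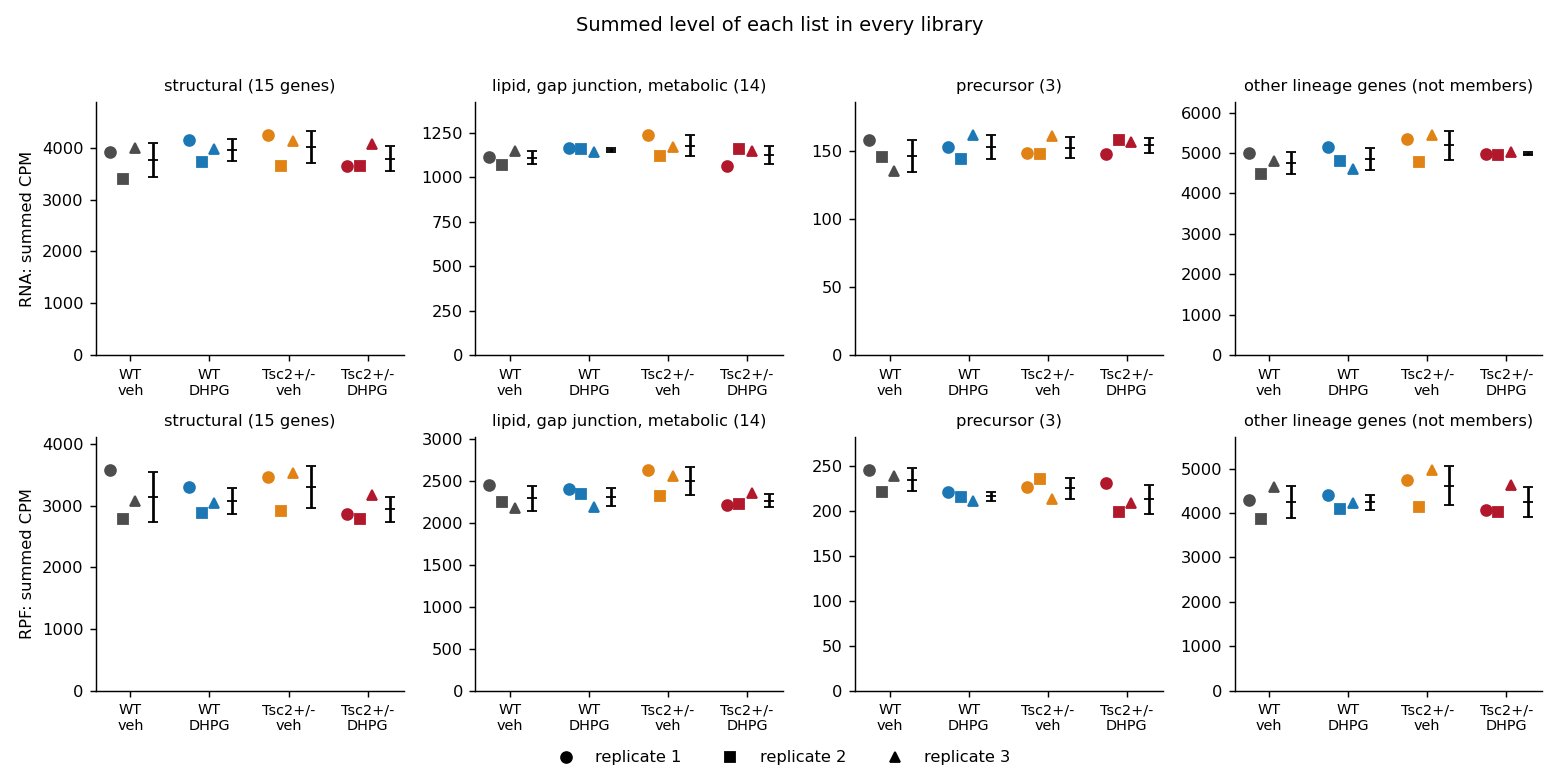
The plot shows the summed CPM (vertical axis, from 0) of 4 gene lists in each library as points shaped by replicate, with the group mean ± SD beside them (n = 3), for RNA (top) and RPF (bottom). For the structural genes the 4 groups overlap and the library numbered 2 is the lowest of its group in RNA.

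In some groups most of these genes had their lowest or highest value in the same library. Of the 34 that are not precursor genes, 25 were lowest in Tsc2+/- vehicle replicate 2 in RNA and 25 were highest in Tsc2+/- vehicle replicate 1, where 31.7% and 34.5% of all genes had their lowest and highest value of that group. In WT vehicle, 20 of 34 were lowest in replicate 2, against 29.7% of all genes. In footprints, 26 of 33 were lowest in Tsc2+/- vehicle replicate 2 (34.1% of all genes), 23 were highest in WT vehicle replicate 1 (35.8%) and 26 were highest in Tsc2+/- DHPG replicate 3 (33.1%). WT DHPG RNA showed no such library, its 3 libraries being lowest for 9, 14 and 11 of 34 genes and highest for 16, 10 and 8. The fit takes out shifts shared by the libraries of a number. For the spread left after that, the median biological coefficient of variation of these genes was 5.46% in RNA and 6.52% in RPF. It was 7.97% and 8.28% over all genes tested, which were not matched for abundance.

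RNA and footprints of the same group and number come from 1 lysate, so the deviations of a lysate can be set side by side in the 2 assays. The structural genes lay on the same side of their group mean in RNA and in RPF in 11 of 12 lysates, the exception being WT vehicle replicate 3. Other oligodendrocyte genes did so in 11, lipid, junction and metabolic genes in 6, transcription factors in 7 and precursor genes in 5, and all 37 genes together in 9. Measured from the mean of the libraries with the same number instead, the count was 9 for structural genes, 7 for other oligodendrocyte genes and 4 for all 37. Against the group mean, the count was 11 for microglial genes, 11 for dentate gyrus genes, 10 for endothelial and mural genes and 8 for astrocyte genes, so genes of other cell types did this as well.

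**Figure D5:**
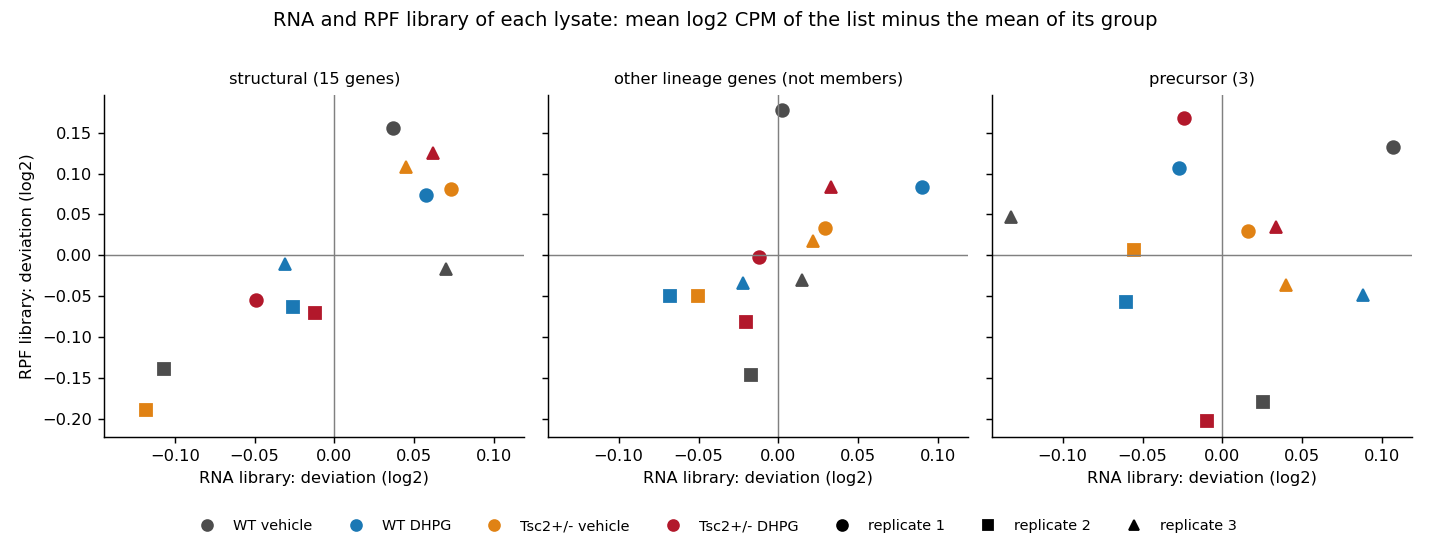
The plot sets, for each of the 12 lysates, the deviation of a list's mean log2 CPM from its group mean in RNA (horizontal axis) against that in RPF (vertical axis), with a panel each for structural genes, other lineage genes and precursor genes. For the structural genes 11 of 12 points lie in the quadrants where both have the same sign.

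Genes of other cell types also varied between libraries. In RNA the glial, vascular, dentate gyrus and CA3 lists varied about as much as structural myelin genes or more. The lists of excitatory neurons, CA1 and inhibitory neurons varied less. Highest over lowest of the 12 libraries in RNA was 1.2 for the summed level of 16 astrocyte genes (11580 to 13920 CPM), 1.23 for 15 microglial genes (465 to 574 CPM), 1.36 for 14 endothelial and mural genes (139 to 188 CPM), 1.44 for 8 dentate gyrus genes (155 to 223 CPM) and 1.26 for 5 CA3 genes (54.3 to 68.3 CPM), against 1.25 for the structural myelin genes. It was 1.153 for 8 genes of excitatory neurons, 1.11 for 7 genes of CA1 and 1.06 for 7 genes of inhibitory neurons. The 4 blood genes ranged from 2.59 to 35.2 CPM. Their group means were 23.6 and 24.6 CPM in WT (vehicle and DHPG) and 11.1 and 9.43 CPM in Tsc2+/- (SDs 2.97 to 9.67). The dentate gyrus list averaged 3.09 and 3.08 log2 CPM in WT RNA, and 2.67 and 2.37 in Tsc2+/- RNA. Its summed RNA was 199 and 188 CPM against 174 and 174 CPM. Excitatory neuron genes went the other way, at 13640 and 14340 CPM in WT and 14640 and 14670 CPM in Tsc2+/-. The 5 genes of Schwann cells, which make peripheral myelin, lay between 33.9 and 44.2 CPM. Among the genes of these lists, Hbb-bt (blood) was called in RNA for genotype in DHPG and averaged, and Prox1 (dentate gyrus) for genotype averaged. The part of these lists in the differences given above was not tested.

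A further 30 genes of the oligodendrocyte lineage served as a second reading. None of the 28 tested in RNA or the 29 tested in RPF was called in any comparison. Their RNA medians were 0.06 and -0.03 for genotype (vehicle and DHPG slices) and 0.09 and -0.05 for DHPG (WT and Tsc2+/- slices), beside 0.06, -0.06, 0.06 and -0.06 for the 37 genes, and they come from the same libraries. In footprints the median for DHPG in Tsc2+/- was -0.05, with 19 of 29 below 0 and 4 lower at an unadjusted p under 0.05, beside -0.15 for the first list. Tppp, a tubulin-binding protein, and Sirt2, a deacetylase, were among the most abundant of them and averaged 782 and 253 CPM over the 12 RNA libraries.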

How the data were processed

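Hippocampal slices of 4 groups (WT and Tsc2+/-, vehicle and DHPG) were measured by RNA-Seq and RiboSeq with 3 libraries per group and assay. The authors deposited estimated counts per gene as whole numbers, made with cutadapt, Bowtie2, TopHat2 and RSEM on mouse build mm10, as their methods name them. RNA was counted over whole RefSeq transcripts, and footprints, after removal of PCR duplicates by molecular identifiers, over coding sequences less 30 nucleotides at each end. Groups came from the labels, and the RNA and RPF libraries of a group and number are from 1 lysate.

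The deposited counts of all genes were fitted in edgeR 4.0.16 (R 4.3.3): genes were kept by filterByExpr with a minimum count of 10 (14516 genes in RNA, 12877 in RPF and 12785 in TE), scaled by TMM and tested by a robust quasi-likelihood F test with group and replicate number as terms, two-sided, with Benjamini-Hochberg adjustment over all genes tested. The replicate number stood for the batch term of the study's methods, which the labels do not give. TE was the interaction of assay and group over 24 libraries, in place of the tool that the study used. RiboSeq counts of replicates 2 and 3 being nearly all even, halving them was one of the alternatives, with DESeq2 1.42.0, ComBat from sva 3.50.0, another scaling, no filter, no replicate number, the compared groups alone, the lysate as a block, and leaving out libraries. The count of genes at an unadjusted p under 0.05 under each of these was added after the data were seen.

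Footprints per RNA divided RPF by RNA CPM, each per kb, with lengths and start codons from RefSeq on GRCm38.p6, where all 37 genes matched. The curated transcript with the longest coding sequence was taken for each gene, whereas the study took the most abundant one for its transcript features. Genes followed library by library were the 6 most abundant in RNA, the 3 precursor genes and the 2 genes with the smallest p in each of the 4 simple comparisons in RNA and in RPF. Other cell types were read from lists of their known markers. The members and lists were chosen with earlier results of these data known. The fit was tested on simulated counts with planted changes larger than most differences given here. It therefore does not show that changes as small as the medians would be found. In some comparisons of that test the share of false calls was slightly above the adjusted threshold. SDs cover the spread between the pools of a group, and intervals that left after the replicate number is fitted. Depth limits the rarest genes.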

Additional observations from a re-analysis of the deposited data

Results flagged for a closer look

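The median log2 difference of the 37 genes between Tsc2+/- and WT RNA had opposite signs in the 2 treatments, 0.0614 in vehicle and -0.059 in DHPG. The medians of the 3 same-numbered contrasts were 0.1133, 0.057 and 0.0181 in vehicle and -0.1302, -0.0348 and -0.016 in DHPG, so every contrast was above 0 in vehicle and below 0 in DHPG. The pattern rested on single libraries: the vehicle median was 0.0084 without Tsc2+/- vehicle replicate 1, and the DHPG median was -0.0005 without Tsc2+/- DHPG replicate 1. The difference between these 2 medians was not tested. Gene by gene, the interaction of genotype and DHPG was called for 0 of 37 genes (edgeR quasi-likelihood test, Benjamini-Hochberg adjustment), and 6 were lower at an unadjusted p under 0.05.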

How the results depend on the processing

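The count of the 37 genes called was 0 in all 21 comparisons and was 0 in every alternative run but those named here. In RPF, genotype in vehicle gave 1 without the filter on low counts (Ugt8a, adjusted p = 0.0592 in edgeR), and DHPG in Tsc2+/- gave 3 when only the groups compared were fitted (Cnp, Mbp and Fa2h). With 1 library or replicate number left out, DHPG in Tsc2+/- gave 0 to 1 in RPF (1 without WT vehicle replicate 1) and DHPG in WT gave 0 to 1 in TE (1 without WT vehicle replicate 2). The list medians ran over those leave-outs from 0.0084 to 0.0792 for genotype in vehicle in RNA, -0.182 to -0.0292 for the interaction in RPF, -0.0258 to 0.0421 for genotype in DHPG in TE and -0.1297 to -0.0355 for DHPG in Tsc2+/- in TE. The cause was not tested. Of the 21 medians, 10 changed sign in some setting: in RNA, DHPG in Tsc2+/- (0.014 without the libraries numbered 1), genotype averaged (to 0.0242) and DHPG averaged (to -0.0293); in RPF, DHPG in WT (to 0.0283), genotype in DHPG (to 0.0411) and genotype averaged (-0.0301); in TE, genotype in vehicle (to -0.0528), genotype in DHPG (to -0.0258), genotype averaged (to -0.0393) and the interaction (to 0.0261, in 9 settings, another scaling among them). The median for genotype in vehicle in RPF kept its sign, at 0.0136 to 0.1512. Counts of called genes and medians stayed within their limit in 905 planned cases and moved in 11, 6 single-gene results became called, and of the lead counts at an unadjusted p, 70 stayed and 16 moved. The limit for a median was the SD of its same-numbered contrasts, so a median could change sign and still stay. A count of called genes stayed whenever it was again 0. These tallies therefore do not measure how stable the directions were. Without the replicate block, 0 genes were called in all comparisons and the RNA median for genotype in vehicle was 0.0591, but counts at an unadjusted p were lower: 1 in place of 8 for DHPG averaged, 3 in place of 9 for the interaction, 5 in place of 12 for DHPG in Tsc2+/- and 1 in place of 4 for genotype averaged in RPF, 3 in place of 7 for DHPG in WT and 0 in place of 3 for genotype in DHPG in RNA, and 1 in place of 5 for DHPG in WT and 2 in place of 6 for DHPG averaged in TE. The replicate number was a term of the reported fits as a stand-in for the study's batch. Same-numbered libraries of different groups correlated in their deviations from the group means by 0.0228 to 0.143 in RNA and 0.033 to 0.263 in RPF. For libraries of other numbers these correlations were -0.126 to 0.024 and -0.194 to 0.0667. Every same-numbered pair was thus above 0, while the ranges of the 2 kinds of pair still overlapped. The even footprint counts also went with the number in every group. What the numbers mark was not tested. Halving the even footprint counts called none of them.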
